A study of Mus musculus with 6 samples.

Results

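Signalling by the transcription factor NF-kappaB was described through 10 genes in hearts lacking, by their label, the oxygen-sensing hydroxylases PHD2 and PHD3. The genes were the Toll-like receptors Tlr2 and Tlr4, the NF-kappaB subunits Rela, Relb, Nfkb1 and Nfkb2, the inhibitors Nfkbia and Tnfaip3, and the cytokines Il1b and Tnf. They form a named list, matched to probes by symbol through the RefSeq accession, and the list was drawn up with earlier results of these data known. All 10 were found, by 12 of the 55608 probes kept, among 20128 genes with a symbol. The 3 KO hearts carried floxed alleles of PHD2 and PHD3 together with Cre (PHD2/3f/f; Cre+/-), and the 3 control hearts carried the same floxed alleles without Cre (PHD2/3f/f; Cre-/-). All 6 mice were C57/B6 at 8 weeks of age. The labels call the replicates biological, and name neither the Cre driver nor an inducer, a sex or the deleted exons. Deletion of the 2 hydroxylases and the presence of Cre therefore cannot be told apart. RNA was hybridised in 1 colour to Agilent mouse arrays, 1 per heart. For its preparation the labels give a column kit in one field, and in another a kit for blood with globin removal.

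NF-kappaB is a family of dimers that rest in the cytoplasm bound to inhibitors of the IkappaB type. Ligands of Toll-like receptors, interleukin-1 and TNF activate the IkappaB kinase, the inhibitor is degraded, and the dimer enters the nucleus, where it binds kappaB sites. Among its targets are its own inhibitors, so the pathway limits itself, and in the heart it is known from the response to injury and to bacterial products. PHD enzymes mark the hypoxia-inducible factors for destruction when oxygen is present.

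Promoters of the genes are shown because the inhibitors and some subunits are themselves known NF-kappaB targets. RefSeq promoters on the mouse build GRCm38.p6 were given for 7 of the 10 genes, 10 promoters in all; Tlr4, Relb and Nfkb1 had no entry. The 250 bases before each start were searched on both strands for the kappaB consensus, the degenerate 10-base motif of NF-kappaB, and overlapping matches were joined. It was found in 6 of the 10 promoters, from 4 genes, Tlr2, Tnfaip3, Nfkbia and Nfkb2, against 7.25% of all 32851 promoters in that table. The promoters of Il1b, Tnf and Rela held no match, and bases further upstream were not searched. All 3 Nfkb2 promoters held it, and the windows of the 2 not shown overlap, so promoters are not independent units. The promoters shown are the one of Tlr2, the one of Nfkbia, the one of 2 for Tnfaip3 that holds the motif, and the first of 3 for Nfkb2. Each is written 5′ to 3′ up to the base before the start, with kappaB matches in capitals.
Tlr2, chr3:83841609-83841858, minus strand: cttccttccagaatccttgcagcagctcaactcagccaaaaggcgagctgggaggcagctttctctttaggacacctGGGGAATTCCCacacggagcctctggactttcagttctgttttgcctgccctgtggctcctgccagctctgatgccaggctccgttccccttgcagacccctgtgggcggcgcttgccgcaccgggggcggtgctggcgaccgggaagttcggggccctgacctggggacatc
Tnfaip3, chr10:19015411-19015660, minus strand: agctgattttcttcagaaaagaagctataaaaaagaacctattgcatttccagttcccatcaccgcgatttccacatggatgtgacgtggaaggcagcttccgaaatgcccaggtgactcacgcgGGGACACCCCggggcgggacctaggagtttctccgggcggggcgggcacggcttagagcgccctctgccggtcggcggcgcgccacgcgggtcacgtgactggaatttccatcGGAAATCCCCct
Nfkbia, chr12:55492648-55492897, minus strand: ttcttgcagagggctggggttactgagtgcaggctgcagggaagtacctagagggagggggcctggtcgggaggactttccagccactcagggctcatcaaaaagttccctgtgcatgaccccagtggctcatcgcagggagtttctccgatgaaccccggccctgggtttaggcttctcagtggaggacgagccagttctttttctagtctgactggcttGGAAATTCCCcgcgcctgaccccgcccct
Nfkb2, chr19:46304487-46304736, plus strand: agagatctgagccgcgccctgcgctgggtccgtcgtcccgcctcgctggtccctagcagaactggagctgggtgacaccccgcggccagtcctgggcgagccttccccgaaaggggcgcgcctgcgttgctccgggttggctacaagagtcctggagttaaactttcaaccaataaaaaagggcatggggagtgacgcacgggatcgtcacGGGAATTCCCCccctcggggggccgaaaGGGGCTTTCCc
The Tlr2 match lay 163 to 173 bases before the start. The Nfkbia match lay 20 to 29 bases before it. Tnfaip3 held matches 116 to 125 and 3 to 12 bases before its start, and Nfkb2 held matches 29 to 39 and 2 to 11 bases before the start shown. A match describes these letters only and shows no binding.

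Signals are given as log2 of the processed signal relative to the 75th percentile of the array, so that a difference of 1 is a 2-fold difference. Of the probes, 46.5% to 50.4% were well above background on KO arrays and 46.3% to 51.0% on control arrays, and the signal at the 75th percentile was 187 to 235 on KO arrays and 147 to 201 on control arrays. Egln1, the PHD2 gene, averaged -0.01 ± 0.34 in KO and 1.22 ± 0.21 in control hearts (SD, n = 3 each), a log2 difference of -1.23 ± 0.21 SE (adjusted p = 0.00652). Egln3, the PHD3 gene, averaged 4.54 ± 0.27 in KO and 2.57 ± 0.13 in control hearts (SD, n = 3 each), a log2 difference of 1.98 ± 0.17 SE (adjusted p = 0.00165). Egln3 thus ran against its label. Neither probe has been placed against the deleted exons, so the groups are named here by their labels. Calls were made by limma at an adjusted p under 0.05 (Benjamini-Hochberg). Of 20014 genes and features without a symbol, 39.1% passed, 16.1% higher and 23% lower in KO hearts, and for 55.9% the groups did not overlap. Of those that passed, 41.1% were higher, against 55.3% by cyclic loess and 57.3% by spike-in scaling. These shifted the median log2 difference of all genes, -0.11, by 0.14 and 0.23. For a single gene in 3 and 3 hearts the smallest p an exact permutation test allows is 0.1, so the calls lean on limma's sharing of variance between genes, and the number of arrays limits the precision. All 6 arrays lay on 1 slide with the groups in different columns of it, so column and group cannot be told apart. Replicates of the same number lay in the same row of the slide. In whole hearts, fewer cells of a type and less RNA per cell cannot be told apart either.

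Of the 10 genes, 9 were bright enough to be tested. Tlr2, Tlr4, Relb and Tnfaip3 rose and Nfkbia fell in KO hearts, while Rela, Nfkb1, Nfkb2 and Il1b did not pass, and Tnf was too dim for the test. The 4 rises among 9 genes stand beside a background of 16.1% of all genes higher, and the 1 fall beside 23% lower. In either direction 55.6% of the tested genes passed, beside 39.1% of all genes. The groups did not overlap for 7 of the 9, beside a background of 55.9%.

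The receptor genes were both higher in KO hearts. Tlr2 encodes a receptor for bacterial lipoproteins that pairs with TLR1 or TLR6. Its log2 signal was 2.01, 1.41 and 1.92 in KO hearts, against 0.10, 0.94 and 0.25 in control hearts. Every KO heart lay above every control heart, and control replicate 2 was the nearest to them. The difference was 1.35 ± 0.27 SE, a 2.54-fold rise (95% confidence interval 0.705 to 1.99 on the log2 scale, adjusted p = 0.0109). Tlr2 had 10 spots on each array, and the SD of its log2 signal between spots of an array was 0.03 to 0.05 on KO arrays and 0.06 to 0.12 on control arrays. With the replicate number as a block the adjusted p was 0.0501.

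Tlr4 encodes the receptor for bacterial lipopolysaccharide, which works with the co-receptor MD-2. Its log2 signal was 0.88, 0.48 and 0.50 in KO hearts, against -0.23, 0.01 and -0.04 in control hearts. The groups were apart, with KO replicate 1 the highest. The difference was 0.71 ± 0.15 SE, a 1.63-fold rise (adjusted p = 0.0143). The Tlr4 call was lost without control replicate 1 (adjusted p = 0.0587), with the replicate block (adjusted p = 0.0559) or with no filter on dim probes (adjusted p = 0.0553).

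**Figure D1:**
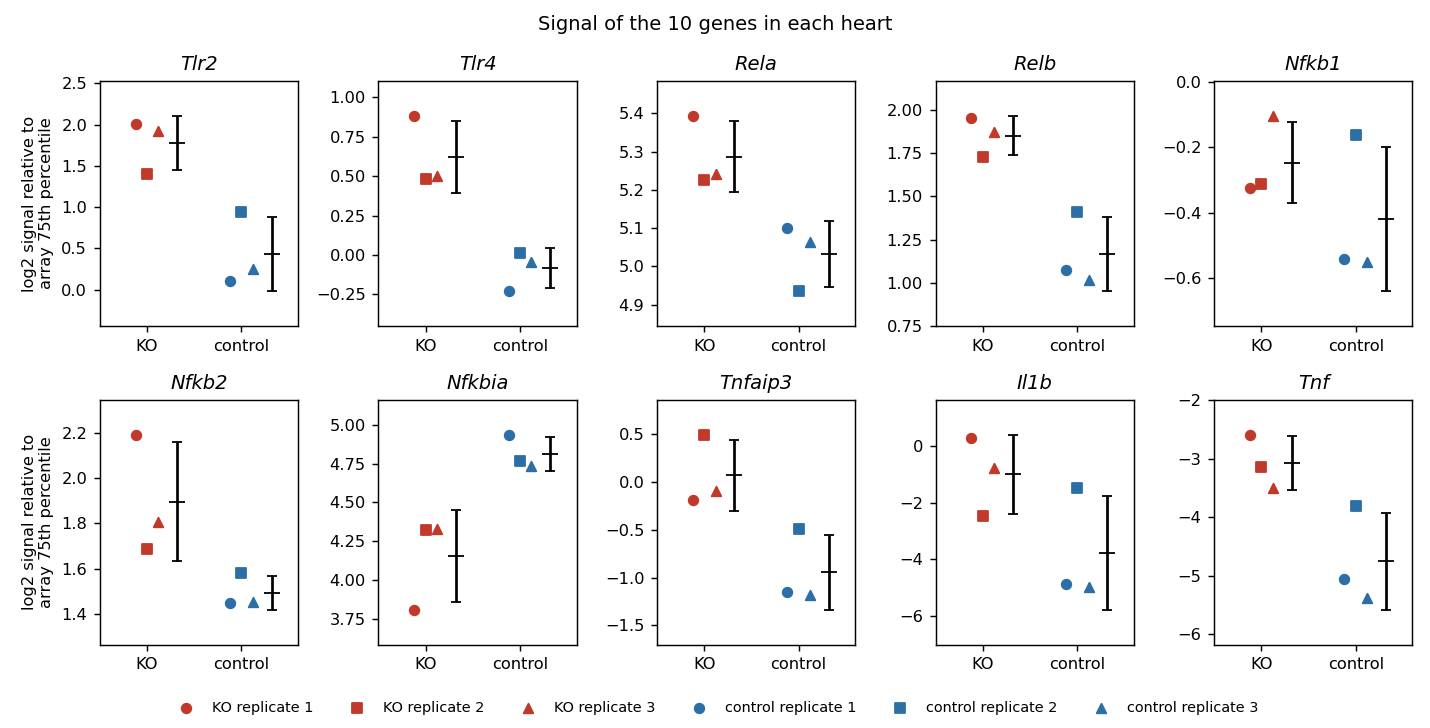
Log2 signal, with each array's 75th percentile at 0 (y axes, a scale of its own per gene) of the 10 genes in KO and control hearts. Points are single hearts, marked by replicate, and the bars beside them give mean and SD (n = 3). Tlr2, Tlr4, Rela, Relb, Nfkb2, Tnfaip3 and Tnf were higher in every KO heart than in any control heart, Nfkbia was lower in every KO heart, and the groups overlapped for Nfkb1 and Il1b.

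Among the subunits only Relb, of the 4 tested, passed. RELB has a transactivation domain and acts chiefly with p52 in the non-canonical pathway. The Relb signal by its brighter probe was 1.95, 1.73 and 1.87 in KO hearts, against 1.07, 1.41 and 1.01 in control hearts. All KO hearts lay higher, by 0.69 ± 0.15 SE on the log2 scale, a 1.61-fold rise (adjusted p = 0.014). The other Relb probe gave 1.09, 0.84 and 0.98 in KO hearts, against 0.08, 0.51 and 0.20 in control hearts, a difference of 0.71 ± 0.15 SE, and its groups did not overlap either. The Relb call was lost without control replicate 1 (adjusted p = 0.0582) or 3 (adjusted p = 0.0576), with the replicate block (adjusted p = 0.0534) or with no filter on dim probes (adjusted p = 0.0555).

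Nfkb2 encodes p100, the precursor of p52 and partner of RELB. Its signal was 2.19, 1.69 and 1.80 in KO hearts, against 1.45, 1.58 and 1.45 in control hearts. The groups did not overlap, but KO replicate 2 lay only a little above control replicate 2, and the difference of 0.40 ± 0.16 SE did not pass (95% confidence interval 0.02 to 0.78, adjusted p = 0.0867). It passed after cyclic loess scaling, at 0.52 (adjusted p = 0.045), and with array weights (adjusted p = 0.00789).

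Rela encodes p65, the main transactivating subunit of the canonical pathway. Its signal was 5.39, 5.23 and 5.24 in KO hearts, against 5.10, 4.94 and 5.06 in control hearts. These groups were narrow and apart, yet the difference of 0.25 ± 0.12 SE did not pass (95% confidence interval -0.02 to 0.53, adjusted p = 0.124). Its call differed between settings. It passed at 0.43 with normexp, a setting that takes median spot signals and adds an offset as well as another background correction (adjusted p = 0.0145), at 0.44 after quantile scaling (adjusted p = 0.0159) and at 0.42 after cyclic loess (adjusted p = 0.0172). It also passed with array weights, at 0.18 (adjusted p = 0.0427), and did not with spike-in scaling, at 0.485 (adjusted p = 0.0837).

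Nfkb1 encodes p105, the precursor of p50. Its bright probe gave -0.32, -0.31 and -0.10 in KO hearts, against -0.54, -0.16 and -0.55 in control hearts. Control replicate 2 lay within the KO hearts, and the difference of 0.17 ± 0.15 SE did not pass (95% confidence interval -0.19 to 0.54, adjusted p = 0.394). The other Nfkb1 probe was not well above background on any array. The remaining subunit gene, Rel, was not tested, since its probe was not well above background on any array.

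**Figure D2:**
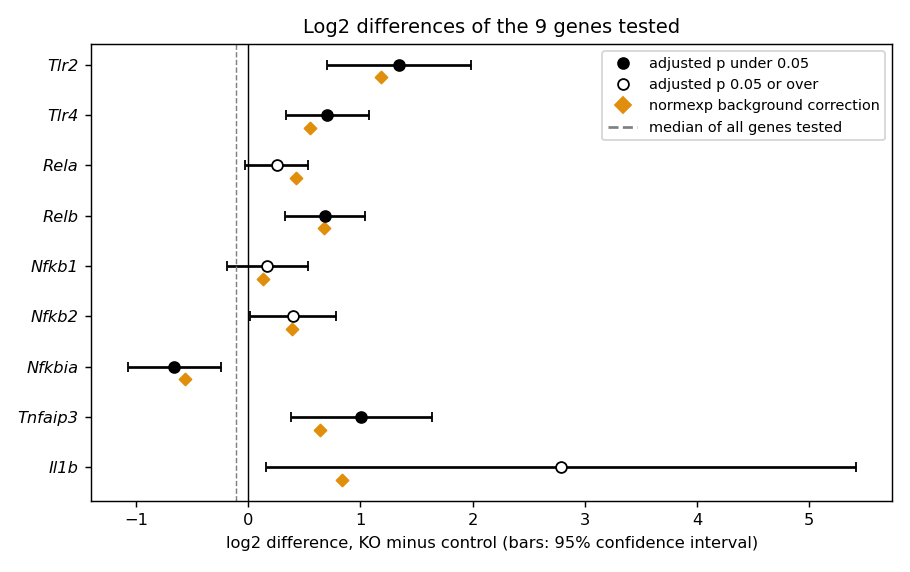
Log2 difference, KO minus control (x axis), of the 9 genes tested (y axis), with 95% confidence intervals from limma, filled where the adjusted p was under 0.05, and with the difference after normexp background correction as diamonds. The dashed line is the median of all genes tested, -0.11. Tlr2 (1.35), Tlr4 (0.71), Relb (0.69) and Tnfaip3 (1.01) lay above 0 and Nfkbia (-0.66) below it, and the interval of Il1b was the widest.

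The inhibitors moved in opposite directions. Nfkbia encodes IkappaB alpha, which holds NF-kappaB in the cytoplasm and is resynthesised after activation. Its signal was 3.81, 4.32 and 4.33 in KO hearts, against 4.94, 4.77 and 4.73 in control hearts. Every KO heart lay below every control heart, with KO replicate 1 the lowest, and the difference was -0.66 ± 0.17 SE, a 1.58-fold fall (adjusted p = 0.0261). The call did not hold after quantile scaling (-0.49, adjusted p = 0.0663), cyclic loess (-0.50, adjusted p = 0.0627) or spike-in scaling (-0.43, adjusted p = 0.125). Nor did it hold without control replicate 1 (adjusted p = 0.0934) or 3 (adjusted p = 0.068), with the replicate block (adjusted p = 0.0748) or with no filter on dim probes (adjusted p = 0.0852).

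Tnfaip3 encodes A20, a ubiquitin-editing enzyme that ends signalling from TNF and Toll-like receptors. Its signal was -0.19, 0.49 and -0.10 in KO hearts, against -1.15, -0.49 and -1.18 in control hearts. The groups did not overlap, replicate 2 was the highest of either group, and the difference was 1.01 ± 0.26 SE, a 2.01-fold rise (adjusted p = 0.0246). With normexp it was 0.64 (adjusted p = 0.0183). The Tnfaip3 call was lost without control replicate 1 (adjusted p = 0.0864) or 3 (adjusted p = 0.0847), without KO replicate 2 (adjusted p = 0.0504) or with no filter on dim probes (adjusted p = 0.0715). It was the 1 of the 10 genes that passed with the replicate block.

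Of the cytokine genes Il1b did not pass and Tnf was too dim for the test. Tnf was dim in every control heart, and Il1b in control replicates 1 and 3. Il1b encodes interleukin-1 beta, which is cut to its active form by caspase-1. Its signal was 0.28, -2.49 and -0.77 in KO hearts, against -4.89, -1.47 and -4.98 in control hearts. KO replicate 2 lay below control replicate 2, so the groups overlapped, and the difference of 2.79 ± 1.1 SE did not pass (95% confidence interval 0.16 to 5.42, adjusted p = 0.085). All 27 unflagged Il1b spots on KO arrays were well above background, against 10 of 30 on control arrays, and those 10 were all on control replicate 2. Before scaling, the mean signal over an array's spots was 285, 33.7 and 116 on KO arrays, against 5.26, 72.7 and 4.95 on control arrays. The size differed between settings. It was 0.84 with normexp (adjusted p = 0.104) and 1.06 in the deposited value table, and 3.94 without control replicate 2 (adjusted p = 0.016).

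Tnf encodes the cytokine TNF, made chiefly by macrophages. Its signal was -2.59, -3.14 and -3.49 in KO hearts, against -5.06, -3.82 and -5.38 in control hearts. Every KO heart lay higher, but the probe counted as well above background on 2 KO arrays and 0 control arrays, so it was left out of the test. Of its spots 16 of 28 were well above background on KO arrays and 4 of 30 on control arrays, the 4 on control replicate 2. The measured means were -3.07 ± 0.46 in KO and -4.75 ± 0.83 in control hearts (SD, n = 3 each), and no fold is given, since the KO arrays too lay partly at background. With no filter on dim probes it had a log2 difference of 1.68 ± 0.46 SE and did not pass (adjusted p = 0.067), and with normexp the difference was 0.11.

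**Figure D3:**
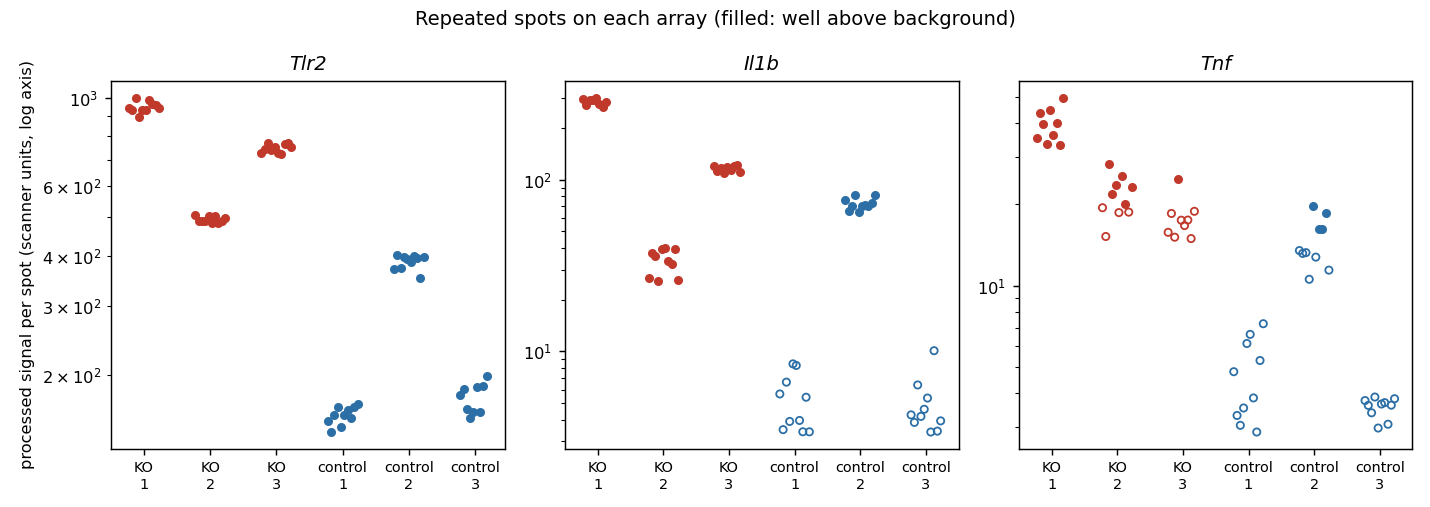
Processed signal of each repeated spot (y axes, scanner units, log axis) of Tlr2, Il1b and Tnf on the 3 KO and 3 control arrays, filled where the spot was well above background. Spots of 1 array lay close together for Tlr2, Il1b was above background on control replicate 2 (mean 72.7) and not on control replicates 1 and 3, and Tnf lay near the limit on KO replicates 2 and 3 and control replicate 2.

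The order of the hearts within a group was alike for many of the genes. Control replicate 2 was the highest control heart for 8 of the 10 genes, all but Rela and Nfkbia. KO replicate 1 was the highest KO heart for 7 of the 10 genes and the lowest for Nfkbia, Nfkb1 and Tnfaip3. These were also the arrays with the most probes above background in each group, 50.4% on KO replicate 1 and 51.0% on control replicate 2. Most markers of macrophages and monocytes were higher in KO hearts too. Of 13 with a probe, all 13 were well above background on at least 1 array, and 8 rose, 2 fell and 3 did not pass (76.9% passed, beside 39.1% of all genes), with a median log2 difference of 1.07 beside -0.11 for all genes. Their summed signal, in units of the array's 75th percentile, was 333, 206 and 280 in KO hearts, against 136, 181 and 150 in control hearts. It was thus highest in KO replicate 1 and control replicate 2 within their groups, as for Tlr2. The part of these cells in the results for Tlr2, Tlr4 and the cytokines was not tested. The fractalkine receptor gene Cx3cr1 (log2 difference 2.67 ± 0.35 SE, adjusted p = 0.00367) and the monocyte chemokine receptor gene Ccr2 (2.73 ± 0.43 SE, adjusted p = 0.00544) were the markers with the smallest p. Ccr2 was above background on 1 of 3 control arrays, and its difference was 1.19 with normexp and 1.94 in the deposited value table. The 2 markers that fell were Itgam, the gene of the integrin CD11b (-0.51 ± 0.13 SE, adjusted p = 0.0246), and Cd163, the gene of a scavenger receptor (-0.95 ± 0.24 SE, adjusted p = 0.0235), which did not pass under 8 and 6 of 19 alternatives.

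Among markers of other cells, 0 of 6 tested neutrophil genes, 0 of 10 endothelial genes and 0 of 7 erythroid and platelet genes passed in limma's test, with 2, 2 and 0 of them at an unadjusted p under 0.05. The summed neutrophil signal was 101 to 154 in KO and 113 to 133 in control hearts, with Ngp never well above background, and the median difference of the 6 tested genes was 0.79. Csf3r, the gene of the granulocyte colony-stimulating factor receptor, had -0.32 ± 0.13 SE (adjusted p = 0.095). With a mean log2 signal of 6.61 in KO and 6.92 in control hearts, Csf3r was the brightest neutrophil gene. It made up most of the neutrophil sum on every array, so the sum says little of the other genes. The calgranulin genes S100a8 (2.51 ± 1.20 SE, adjusted p = 0.139) and S100a9 (2.29 ± 1.11 SE, adjusted p = 0.142) did not pass, and both were highest in KO replicate 1, as were Il1b and Tnf. The part of these cells in the cytokine values was not tested. Of 5 tested lymphocyte genes 1 rose (20% passed, beside 39.1% of all genes). It was Cd3d, a subunit of the T cell receptor complex (3.37 ± 1.03 SE, adjusted p = 0.0413). Klrb1c and Ncr1 were never above background, and the summed lymphocyte signal was 7.81 to 23.3 in KO and 6.52 to 9.20 in control hearts. Cd3d was above background on 1 of 3 control arrays, did not pass under 8 of 18 alternatives, and had 1.20 with normexp (adjusted p = 0.122). Of 10 fibroblast genes 6 rose, 0 fell and 4 did not pass (60% passed, beside 39.1% of all genes). Among the rises were the matrix genes Postn (4.63 ± 0.51 SE, adjusted p = 0.00266) and Col1a1 (2.64 ± 0.44 SE, adjusted p = 0.00648). Those that did not pass were Pdgfra (0.34, adjusted p = 0.135), Ddr2 (0.08, adjusted p = 0.728), Dcn (-0.23, adjusted p = 0.352) and Dpt (-0.15, adjusted p = 0.759). The summed fibroblast signal was 1050 to 1180 in KO and 417 to 769 in control hearts. All 10 cardiomyocyte genes were above background, and 7 fell, 0 rose and 3 did not pass (70% passed, beside 39.1% of all genes). Among the falls were the troponin gene Tnni3 (-1.57 ± 0.19 SE, adjusted p = 0.00316) and the calcium release channel gene Ryr2 (-0.83 ± 0.16 SE, adjusted p = 0.0105). Nppa lay the other way, at 1.80 ± 0.75 SE, and did not pass (adjusted p = 0.0992). The summed cardiomyocyte signal was 7760 to 9600 in KO and 10800 to 13200 in control hearts.

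The wider pathway was read from 9 lists. Leaving the 10 genes out, 125 further genes were listed and 102 tested, of which 33 rose, 12 fell and 57 did not pass. The share that passed, 44.1%, was near the 39.1% of all genes, and the median log2 difference was 0.40 beside -0.11 for all genes. That median includes genes, such as Il6, Plau, Tnc and Ikbke, that entered the test through the KO arrays only. Among 7 Toll-like receptor genes tested, 5 rose, 0 fell and 2 did not pass, with a median of 1.35. The share that passed was 71.4%, beside 39.1% of all genes. Beside Tlr2 and Tlr4 the rises were Tlr1 and Tlr6, the partners of TLR2, and Tlr13, a sensor of bacterial ribosomal RNA. Tlr1 rose 4.96-fold (2.31 ± 0.39 SE, adjusted p = 0.00648), Tlr6 2.91-fold (1.54 ± 0.32 SE, adjusted p = 0.0122) and Tlr13 2.89-fold (1.53 ± 0.34 SE, adjusted p = 0.0147). With normexp Tlr1 had 1.21 and Tlr6 0.54. Tlr1 and Tlr6 are close paralogs, and whether their probes cross-hybridise was not tested. Tlr7 had 0.31 (adjusted p = 0.0999) and Tlr9 -0.09 (adjusted p = 0.553), and Tlr9 lay above 0 under spike-in scaling and cyclic loess. The other 5 genes of the list were too dim for the test.

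Of 12 tested genes for co-receptors and adaptors of Toll-like receptors, 4 rose, 3 fell and 5 did not pass, with a median of 0.09. In either direction 58.3% passed, beside 39.1% of all genes. The rises were Unc93b1, the chaperone of endosomal Toll-like receptors (1.45 ± 0.15 SE, adjusted p = 0.00241), Ly96, the gene of MD-2 (0.51 ± 0.13 SE, adjusted p = 0.0227), and the signalling genes Irak4 (0.71, adjusted p = 0.0268) and Myd88 (0.57, adjusted p = 0.04). The falls were Tollip, which encodes a dampener of the receptors (-0.62 ± 0.13 SE, adjusted p = 0.0116), and the kinase genes Irak1 (-0.58 ± 0.14 SE, adjusted p = 0.0191) and Irak2 (-0.54, adjusted p = 0.0422). Irak4 did not pass under 7 of 19 alternatives (0.19 with normexp, adjusted p = 0.179), Irak1 under 5 and Irak2 under 10. Myd88 did not pass under 8 of 19, Ly96 under 5 and Tollip under 3. The lipopolysaccharide co-receptor gene Cd14 had 0.85 ± 0.37 SE and did not pass (adjusted p = 0.106).

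Among 14 tested inhibitors and deubiquitinases, 5 rose, 4 fell and 5 did not pass, with a median of 0.28. In either direction 64.3% passed, beside 39.1% of all genes. Those that rose beside Tnfaip3 were the IkappaB family genes Nfkbie (1.55 ± 0.26 SE, adjusted p = 0.00671), Nfkbid (1.34 ± 0.31 SE, adjusted p = 0.0179), Nfkbiz (1.20, adjusted p = 0.0256) and Bcl3 (1.11, adjusted p = 0.0288). Nfkbie encodes IkappaB epsilon, a cytoplasmic inhibitor like the product of Nfkbia, whereas the other 3 encode nuclear members of the family. Those that fell beside Nfkbia were Nfkbib, the gene of IkappaB beta (-0.46, adjusted p = 0.0309), the deubiquitinase gene Otud7b (-0.82 ± 0.15 SE, adjusted p = 0.00816) and the A20-binding protein gene Tnip3 (-1.01 ± 0.12 SE, adjusted p = 0.00279). Tnip3 was above background on 2 of 3 KO arrays, and with normexp it had -0.47. Nfkbiz and Bcl3 did not pass under 7 of 19 alternatives each, Nfkbib under 8, Nfkbid under 3 and Otud7b under 1. The lowest difference of Nfkbiz among them was 0.47. The cytoplasmic IkappaB genes were thus split, with Nfkbie higher and Nfkbia and Nfkbib lower in KO hearts, and neither fall passed with spike-in scaling.

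Of 22 tested genes of the IkappaB kinase complex, upstream kinases and TRAF adaptors, 5 rose, 2 fell and 15 did not pass, with a median of -0.07. The share that passed, 31.8%, was below the 39.1% of all genes. The kinase subunit genes Chuk (-0.20 ± 0.11 SE, adjusted p = 0.185), Ikbkb (0.22 ± 0.16 SE, adjusted p = 0.308) and Ikbkg (-0.21 ± 0.13 SE, adjusted p = 0.235) did not pass, and Chuk and Ikbkg lay above 0 with spike-in scaling. The rises were the adaptor genes Traf1 (1.31 ± 0.23 SE, adjusted p = 0.00743) and Tradd (0.78 ± 0.14 SE, adjusted p = 0.00748), Ripk1, a kinase gene of the TNF receptor complex (0.90 ± 0.17 SE, adjusted p = 0.00929), Map3k14, the gene of the NIK kinase of the non-canonical pathway (1.02 ± 0.22 SE, adjusted p = 0.0139), and Ikbke (0.57, adjusted p = 0.0481), which had -0.06 with normexp and did not pass under 13 of 18 alternatives. The 2 falls, Rnf31 (-0.51, adjusted p = 0.0157) and Sharpin (-0.42, adjusted p = 0.0345), are genes of the linear ubiquitin ligase complex, and neither passed with spike-in scaling.

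In the TNF system 3 of 6 tested genes rose, 0 fell and 3 did not pass, with a median of 0.57. The share that passed was 50%, beside 39.1% of all genes. The TNF receptor genes Tnfrsf1b (1.46 ± 0.24 SE, adjusted p = 0.00635) and Tnfrsf1a (0.72 ± 0.14 SE, adjusted p = 0.00963) rose, as did the lymphotoxin beta gene Ltb (1.75 ± 0.56 SE, adjusted p = 0.0484), which did not pass under 10 of 19 alternatives. Of 8 tested genes of the interleukin-1 and inflammasome system, 2 rose, 0 fell and 6 did not pass, with a median of 0.56. The share that passed, 25%, was below the 39.1% of all genes. The rises were Casp1, the gene of caspase-1 (0.60 ± 0.16 SE, adjusted p = 0.0276), and the pore-forming gasdermin gene Gsdmd (0.50 ± 0.16 SE, adjusted p = 0.044). They did not pass under 8 and 9 of 19 alternatives. Il18, which encodes another caspase-1 substrate, had 1.29 ± 0.53 SE (adjusted p = 0.095).

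Of 27 known NF-kappaB targets tested, 8 rose, 3 fell and 16 did not pass, with a median of 1.01. That median includes Il6, Plau, Ptgs2, Ccl3, Selp, Cxcl5 and Saa3, each above background on 1 control array. They entered the test through the KO arrays only, a filter that favours genes higher in KO hearts, so the median is no even-handed summary. The share that passed, 40.7%, was near the 39.1% of all genes. The summed signal of the list went the other way, at 380, 462 and 439 in KO hearts, against 686, 815 and 666 in control hearts. Its brightest gene was Sod2, with a mean log2 signal of 7.55 in KO and 8.95 in control hearts. The chemokine genes Ccl5 (2.62 ± 0.31 SE, adjusted p = 0.00315), Cxcl10 (2.60, adjusted p = 0.015) and Ccl4 (2.46, adjusted p = 0.0222) and the immune cell surface genes Cd83 (0.97 ± 0.13 SE, adjusted p = 0.00414) and Cd40 (1.01 ± 0.16 SE, adjusted p = 0.00585) rose. So did the adhesion gene Vcam1 (1.02, adjusted p = 0.0299), the protease gene Plau (1.34, adjusted p = 0.0257) and the cytokine gene Il6 (3.68, adjusted p = 0.0462). Il6 and Plau were above background on 1 control array, the groups of Il6 overlapped, and with normexp Il6 had 1.23 and Plau 0.28. Il6 did not pass under 12 of 18 alternatives, Plau under 7 of 18 and Vcam1 under 8 of 19. The falls were Sod2, the gene of mitochondrial superoxide dismutase (-1.41 ± 0.19 SE, adjusted p = 0.00414), the tissue factor gene F3 (-1.37, adjusted p = 0.0107) and the survival gene Bcl2l1 (-0.70, adjusted p = 0.0165). The monocyte chemokine gene Ccl2 had 1.34 ± 0.73 SE and did not pass (adjusted p = 0.182).

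Genes of proteins known as endogenous ligands of Toll-like receptors were also measured. Of 11 tested, 4 rose, 1 fell and 6 did not pass, with a median of 1.40. In either direction 45.5% passed, beside 39.1% of all genes. The rises were the matrix genes Vcan (2.26 ± 0.28 SE, adjusted p = 0.00322), Tnc (3.27 ± 0.67 SE, adjusted p = 0.0116), Fn1 (3.01 ± 0.72 SE, adjusted p = 0.0191) and Bgn (1.40, adjusted p = 0.0276), and the fall was the mitochondrial chaperone gene Hspd1 (-1.14 ± 0.16 SE, adjusted p = 0.00457). Tnc was above background on 1 control array and had 1.07 with normexp. As given above, 6 of 10 fibroblast markers rose too, and the part of fibroblasts in these 4 rises was not tested. Of the 37 called genes named from the lists by rank, or as PHD genes, 25 passed under every alternative run, among them Tlr1, Unc93b1, Nfkbie, Tnip3, Traf1, Tradd, Ripk1, Map3k14, Tnfrsf1a, Tnfrsf1b, Ccl5, Cd40, Cd83, Sod2, Vcan, Tnc and Hspd1. All but the PHD genes were picked for a small p in these same data. Their share therefore does not show how well calls of these lists hold.

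**Figure D4:**
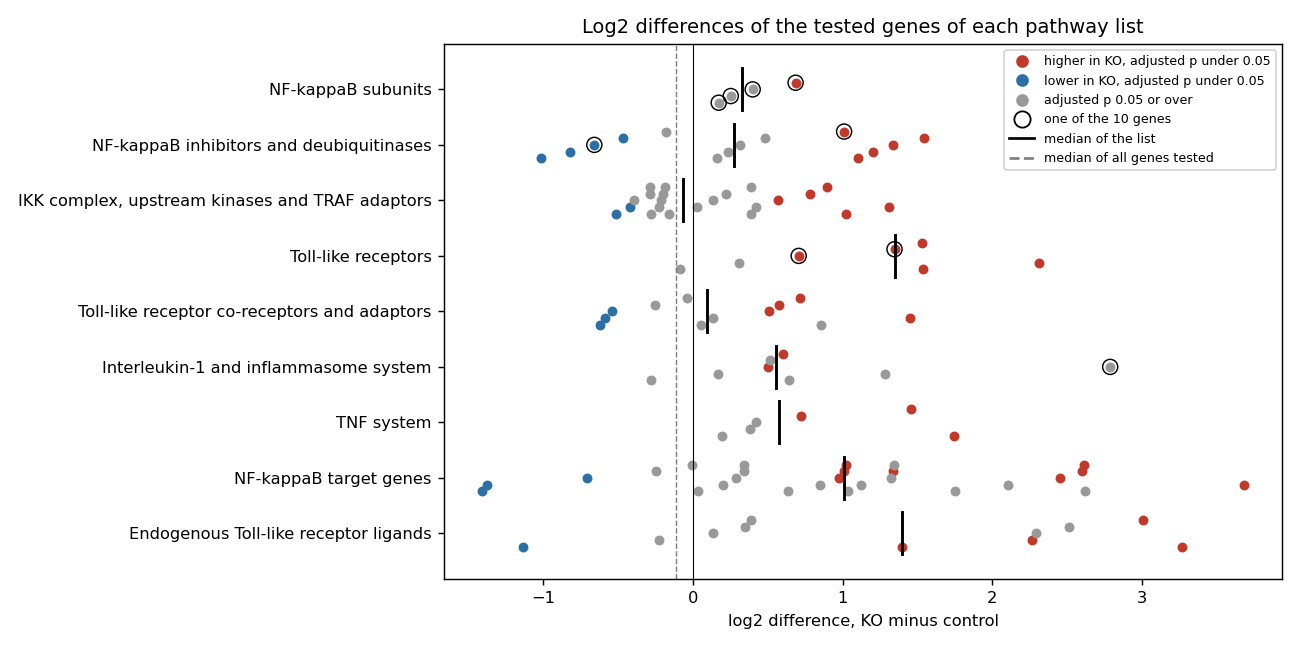
Log2 difference, KO minus control (x axis), of each tested gene of the 9 pathway lists (rows), coloured by call, with the 10 genes ringed, each list's median as a bar and the median of all genes, -0.11, as a dashed line. The median was 1.35 for Toll-like receptors, 1.40 for their endogenous ligands, 1.01 for NF-kappaB targets and -0.07 for the kinase complex and adaptors. Genes that entered the test through the KO arrays only, such as Il6 and Plau among the targets, are counted in the medians.

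Of the 19 alternatives 5 change only the test or the genes tested and leave the differences as they are. Under the other 14 each of the 9 tested genes kept its direction. For the 7 genes whose groups did not overlap, neither leaving out 1 heart nor weighting the arrays could reverse it. Averaging a gene's probes left 8 of the 9 differences as they were. The deposited values gave nearly the same differences for all but Il1b, as for Tlr2 (1.348 beside 1.347). The 14 are thus not 14 separate checks of direction. Median and spike-in scaling each raised all differences by 1 constant, so neither could reverse a difference above 0. Il1b was tested in 18 of the 19. None of the 5 calls passed under all of them. Tlr2 passed under 18 of 19, Tlr4 under 16, Relb and Tnfaip3 under 15 and Nfkbia under 12. Of the 4 that did not pass as tested, Rela passed under 4 alternatives, Nfkb2 under 2, Nfkb1 under 1 of 19 and Il1b under 2 of 18. Without control replicate 1 only 1 of the 5 calls was kept, Tlr2, and without control replicate 3 only 2 were, Tlr2 and Tlr4.

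**Figure D5:**
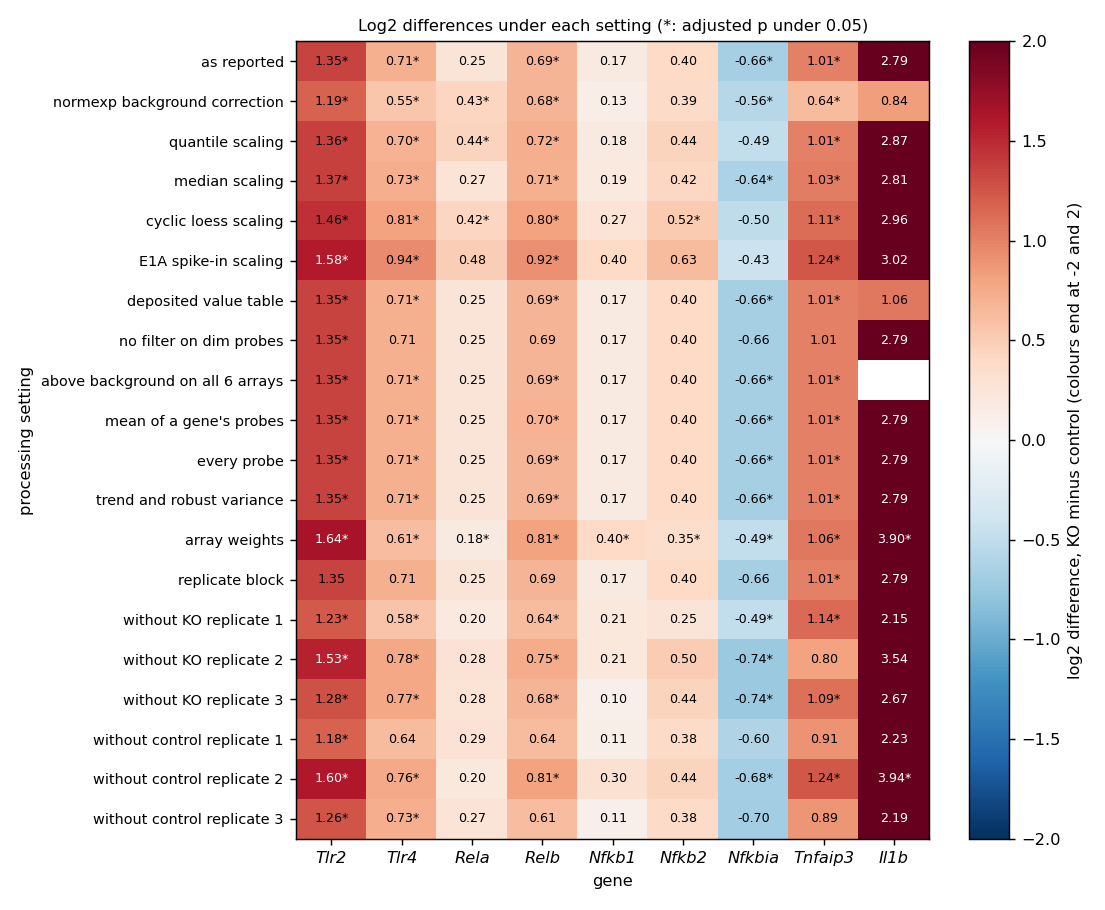
Log2 difference, KO minus control (colour and number), of the 9 tested genes (columns) under the processing as reported and each of 19 alternatives (rows), with an asterisk where the adjusted p was under 0.05. Tlr2 lay at 1.18 to 1.64 and Nfkbia at -0.74 to -0.43, and the empty cell is Il1b, which was not above background on all 6 arrays.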

How the data were processed

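Each array's file holds the intensity of its spots, background-subtracted but not scaled between arrays, and flags, per the file headers. The deposited log2 values, used as an alternative, are of unstated normalization. After 1 constant per array, 95.9% of their differences between arrays equalled those of the scanner files within 0.001. They are thus no independent measurement. The submitters' processing notes list Agilent Feature Extraction 11.0.1.1 and R 3.1.3. From the scanner files, log2 processed signal was taken, outlier spots were left out, repeated spots averaged and each array's 75th percentile subtracted. A probe counted as well above background on an array if at least 50% of its spots were. Probes above background on all 3 arrays of at least 1 group were tested, 1 per gene (the brightest), in limma 3.58.1 (R 4.3.3), 2-sided, with Benjamini-Hochberg adjustment over all 20014 genes and features. The fit was also run on simulated data with normal noise and far fewer changed genes than passed here, and no call rests on that run. Of 55608 probes 26551 had a symbol through RefSeq accessions, and no probe positions were used. Normexp used median spot and background signals (offset 50), since no mean spot signal was held.

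The 10 genes, the lists and the alternatives were chosen with earlier results of these data known. Of 210 list genes 205 had a probe and 169 were tested. From each pathway list up to 4 passing genes with the smallest p were named, or 2 where fewer than 2 passed, and from each cell type list up to 2, beside Egln1 and Egln3. Nfkbiz, Bcl3, Nfkbib, Irak4, Myd88, Irak2, Rnf31, Sharpin, Ikbke, Chuk, Ikbkb, Ikbkg, Il6, Cxcl10, Ccl4, Vcam1, Plau, F3, Bcl2l1, Bgn, Ccl2, Cd14, Tlr7, Tlr9, Il18, Itgam, Cd163, S100a8, S100a9 and Csf3r were named after their values were seen. So were Pdgfra, Ddr2, Dcn, Dpt, Nppa, Ptgs2, Ccl3, Selp, Cxcl5 and Saa3, for which no alternative is given.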

Additional observations from a re-analysis of the deposited data

How the results depend on the processing

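The number of genes and features that passed, 7817, was 13713 with array weights, 4345 with no filter on dim probes, 4862 with the replicate block, and 3987 to 8672 with 1 heart left out (3987 without control replicate 1, 4123 without control replicate 3, 5142 without KO replicate 3). The 5 calls among the 10 genes became 9 with array weights, 1 with no filter on dim probes (Tlr2), 1 with the replicate block (Tnfaip3), and 1 to 6 with 1 heart left out. Between 4 and 6 passed under the scalings, normexp and the deposited value table. Same-numbered arrays of the groups lay in the same row of the slide, so the replicate block is also a block of slide rows. Deviations of same-numbered hearts from their group means correlated at -0.15, -0.12 and -0.08 over the genes. So few values cannot decide whether the hearts are paired. Among the other named genes, Chuk (0.0297), Ikbkg (0.0196) and Tlr9 (0.143) turned positive with spike-in scaling, Tlr9 (0.0355) also by cyclic loess, and Ikbke (-0.0571) turned negative with normexp. Of the 37 genes called and named by the rule, 25 passed under every alternative run, and of the 19 called and named after their values were seen, 1, F3, did. The cause of these changes was not tested. A slide block was not run, since all arrays lay on 1 slide. Tnf and Il1b were not well above background on every array.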
